A study of Mus musculus with 8 samples.

Results

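The 10 genes described here encode the catalytic subunits of the proteasome and the proteins that work beside them in making peptides for MHC class I. They were taken by symbol from the gene tables of mouse cerebellum, where all 10 were found among 17700 listed genes. They comprise the inducible catalytic subunits Psmb8, Psmb9 and Psmb10, their constitutive counterparts Psmb5, Psmb6 and Psmb7, the activator subunits Psme1 and Psme2, and the peptide transporter genes Tap1 and Tap2. Total RNA of frozen cerebellum was sequenced from 8 mice of the strain C57BL/6JN. Old mice, 4 in number, were 83 to 102 weeks of age, and the 4 young mice were 19 to 22 weeks. Each age had 2 males and 2 females. No genetic change or drug is given for either group, and the labels name old age as the treatment. The title of the study relates DNA hydroxymethylation to transcriptional change in aging, and the comparison of old with young asks how transcript levels differ with age. The series' design text names liver and other ages, so tissue and age follow the sample labels. Replicates are described there as biological.

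The proteasome degrades proteins inside a barrel whose proteolytic activity sits in the beta1, beta2 and beta5 positions. In most cells these positions hold Psmb6 (beta1), Psmb7 (beta2) and Psmb5 (beta5). Interferon induces Psmb9, Psmb10 and Psmb8, which take the same positions in newly assembled particles to form the immunoproteasome. Psme1 and Psme2 together form the PA28 ring that opens the barrel, and the Tap1-Tap2 pair carries the peptides into the endoplasmic reticulum for loading onto class I molecules. In brain, interferon is known to induce Psmb8, Psmb9 and Psmb10 in microglia, the resident immune cells.

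Libraries held 6079485 to 7236720 gene counts. At that depth 3 counts corresponded to a floor of 0.421 to 0.511 on the CPM scale, which covers counting error only. CPM here are counts scaled to library totals that were adjusted by the trimmed mean of M-values (TMM). The tissue label was checked with marker genes. Granule neuron markers, 10 genes, summed to 4208 to 7168 CPM per library and 10 Purkinje cell markers to 4959 to 6963 CPM. Summed over 7 liver markers, old 2 had 84.1 CPM, old 3 had 23.6 CPM and young 4 had 21.2 CPM, while the remaining 5 libraries had 0.681 to 9.61 CPM. The choroid plexus markers, 8 genes, ranged from 36.9 to 891 CPM and overlapped between ages. Whether these tissues contributed to the members' values was not tested. Where leaving out old 2, old 3 and young 4 altered a call, a direction or a ratio by more than its spread, the value without them is given.

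The 4 members whose old values all lay above the young ones, described further on, sit side by side in the MHC region, and their order is shown for that reason. Psmb9, Tap1, Psmb8 and Tap2 follow each other within 34335 bases of chromosome 17 in GRCm38, at 34181987 to 34187764, 34187553 to 34197225, 34197721 to 34201454 and 34203527 to 34216321. Psmb9 lies on the minus strand and the other 3 on the plus strand. Psmb10, the inducible beta2 subunit, lies elsewhere, on chromosome 8 at 105935735 to 105938444. Psme1 and Psme2 are neighbours on chromosome 14, at 55578123 to 55581529 and 55587441 to 55591113. The constitutive genes Psmb5, Psmb6 and Psmb7 lie on chromosome 14 at 54614119 to 54618022, chromosome 11 at 70525367 to 70527858 and chromosome 2 at 38588036 to 38644087. These are whole gene spans from GENCODE M21, and a gene's count is taken over all its exons as 1 value.

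**Figure D1:**
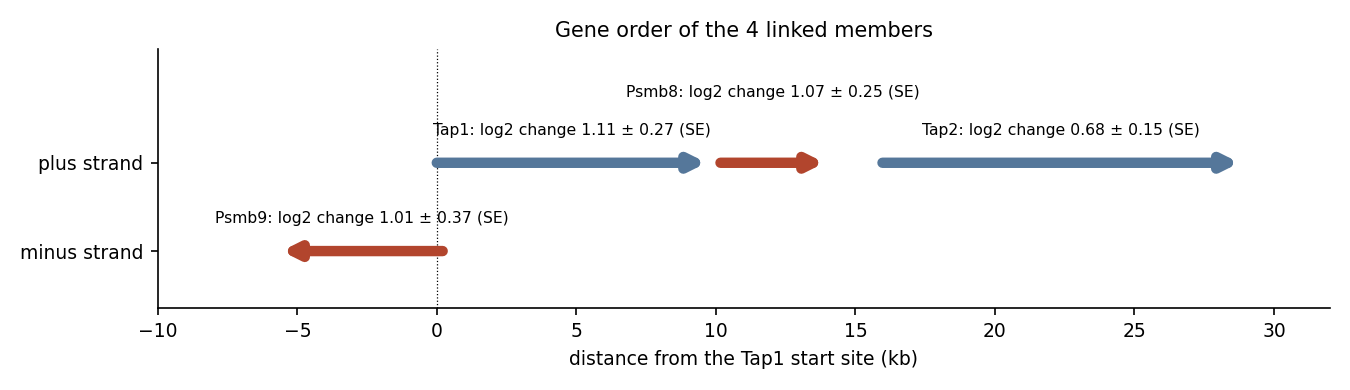
Map of the linked genes Psmb9, Tap1, Psmb8 and Tap2, with the distance from the Tap1 start site in kb on the x axis and the strand on the y axis; each arrow is a gene span pointing in the direction of transcription. Psmb9 and Tap1 start next to each other on opposite strands, and the printed log2 fold changes (old minus young, with SE) run from 0.68 for Tap2 to 1.11 for Tap1.

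RefSeq windows of 250 bases before to 50 bases after a start site (GRCm38.p6) were found for 8 of the 10 members, and 4 are printed to compare linked and unlinked members. Start sites are those of RefSeq and can differ from the ends of the GENCODE spans given above. The first is Psmb8, with a match to the interferon-gamma activated site TTCNNNGAA in capitals at chr17:34197945-34198244, plus strand. The GENCODE span of Psmb8 begins at 34197721, so this whole window lies inside that span. The next is the stretch from which Psmb9 and Tap1 are read in opposite directions, at chr17:34187306-34187605, plus strand. Its capitals mark the 225 bases between the Psmb9 start site at 34187330 and the Tap1 start site at 34187556. The GENCODE span of Psmb9 reaches 34187764, so these bases lie inside it and are not upstream of every annotated start. Then come Psmb10 at chr8:105938343-105938642, minus strand, as the inducible gene outside the cluster, and Psmb5 at chr14:54617946-54618245, minus strand, with a match to the antioxidant response motif TGACNNNGC in capitals. Each reads 5′ to 3′ along its gene, the shared stretch along Tap1.
Psmb8: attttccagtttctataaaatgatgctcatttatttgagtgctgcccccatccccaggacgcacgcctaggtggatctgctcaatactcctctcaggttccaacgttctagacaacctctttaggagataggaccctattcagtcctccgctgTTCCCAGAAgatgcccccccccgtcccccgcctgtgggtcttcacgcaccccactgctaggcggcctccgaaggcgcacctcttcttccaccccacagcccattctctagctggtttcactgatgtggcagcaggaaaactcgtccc
Tap1 and Psmb9: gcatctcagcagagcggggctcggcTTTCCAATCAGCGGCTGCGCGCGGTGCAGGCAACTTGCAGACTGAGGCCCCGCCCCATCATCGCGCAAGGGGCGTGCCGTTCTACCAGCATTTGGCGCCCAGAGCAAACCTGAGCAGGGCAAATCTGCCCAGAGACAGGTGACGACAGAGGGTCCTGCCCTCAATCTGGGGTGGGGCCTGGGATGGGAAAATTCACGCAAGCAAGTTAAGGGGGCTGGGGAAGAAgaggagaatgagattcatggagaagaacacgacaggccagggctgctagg
Psmb10: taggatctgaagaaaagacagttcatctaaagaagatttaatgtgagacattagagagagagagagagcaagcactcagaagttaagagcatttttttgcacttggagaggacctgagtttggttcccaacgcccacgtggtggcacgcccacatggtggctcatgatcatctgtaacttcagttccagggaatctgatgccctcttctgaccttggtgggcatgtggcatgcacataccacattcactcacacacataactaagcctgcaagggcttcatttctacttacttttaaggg
Psmb5: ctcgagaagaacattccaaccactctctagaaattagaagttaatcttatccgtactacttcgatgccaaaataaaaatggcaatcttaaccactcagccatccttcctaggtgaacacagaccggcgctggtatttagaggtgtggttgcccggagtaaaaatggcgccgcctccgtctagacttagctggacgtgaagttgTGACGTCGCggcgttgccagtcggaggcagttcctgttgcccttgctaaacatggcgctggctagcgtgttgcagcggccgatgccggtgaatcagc

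The windows were searched on both strands for 3 motifs. The activated site TTCNNNGAA was found in 8.30% of 32851 promoter windows and, among the members, in Psmb8 alone, as TTCCCAGAA from base -97 counted from the start. The core of the interferon-stimulated response element, GAAA followed by any 2 bases and GAAA again, was found in 3.44% of windows and, among the members, in Psme1 as TTTCGCTTTC, the other strand's reading, from base 10 counted from the start. TGACNNNGC was found in 12.4% of windows and, among the members, in Psmb5 as TGACGTCGC from base -47 and in Psmb6 as TGACGGAGC from base -9. The Psmb9, Tap1, Psmb10 and Psme2 windows held none of the 3. A match is a description of the letters in this window and shows no binding. Only these exact patterns within the windows were searched, so a missing match does not show that a site is absent.

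Psmb8 and Psmb9, the inducible beta5 and beta1 subunits, had higher values in each old library than in any young one, while the third inducible subunit, Psmb10, did not. Psmb8 stood at 6.73, 5.17, 5.34 and 8.98 CPM in old 1 to old 4 and at 2.94, 3.76, 2.90 and 2.80 CPM in young 1 to young 4. Old 4, the mouse of 102 weeks, was the highest, and the groups did not overlap. The old mean was 6.56 ± 1.76 CPM (SD, n = 4), and the young mean was 3.10 ± 0.443 CPM (SD, n = 4). The log2 fold change was 1.07 ± 0.25 (SE), with an adjusted p = 0.145 (edgeR's quasi-likelihood test, Benjamini-Hochberg over 14191 genes).

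Psmb9 was the least abundant member, with 15, 11, 11 and 16 counts in old 1 to old 4 and 6, 4, 6 and 10 counts in young 1 to young 4. These counts corresponded to 2.40, 1.58, 1.73 and 2.52 CPM in old and 0.930, 0.627, 1.02 and 1.40 CPM in young mice. The groups did not overlap, although the lowest old value and the highest young value lay close together. The log2 fold change was 1.01 ± 0.37 (SE), with an adjusted p = 0.343 by edgeR. Psmb9 passed the filter on low counts through the old libraries, of which 4 reached its 1.56 CPM while 0 young ones did. The old libraries alone thus brought it into the test, a selection that favours higher old values. With no filter on low counts the log2 fold change was 1.01 ± 0.36 (SE), with an adjusted p = 0.342 by edgeR. The 53 counts in old against 26 in young libraries gave a ratio of 2.03 after scaling to depth, with a 95% exact interval of 1.25 to 3.39 that covers counting error only.

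Psmb10 was read at 9.77, 9.77, 9.27 and 10.4 CPM in old 1 to old 4 and at 9.14, 11.4, 9.71 and 9.39 CPM in young 1 to young 4. The old values lay inside the young range. The log2 fold change was -0.01 ± 0.15 (SE), with an adjusted p = 0.984 by edgeR. Its coefficient of variation was 4.73% in old and 10.5% in young mice, where counting alone gives 12.6% and 12.5% at its mean counts. That of Psmb8 was 26.9% in old and 14.3% in young mice, where counting alone gives 15.4% and 22.4%. Old libraries held 254 and young libraries 256 counts of Psmb10, a ratio of 0.990 after scaling to depth (95% exact interval for counting error, 0.8287 to 1.18).

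**Figure D2:**
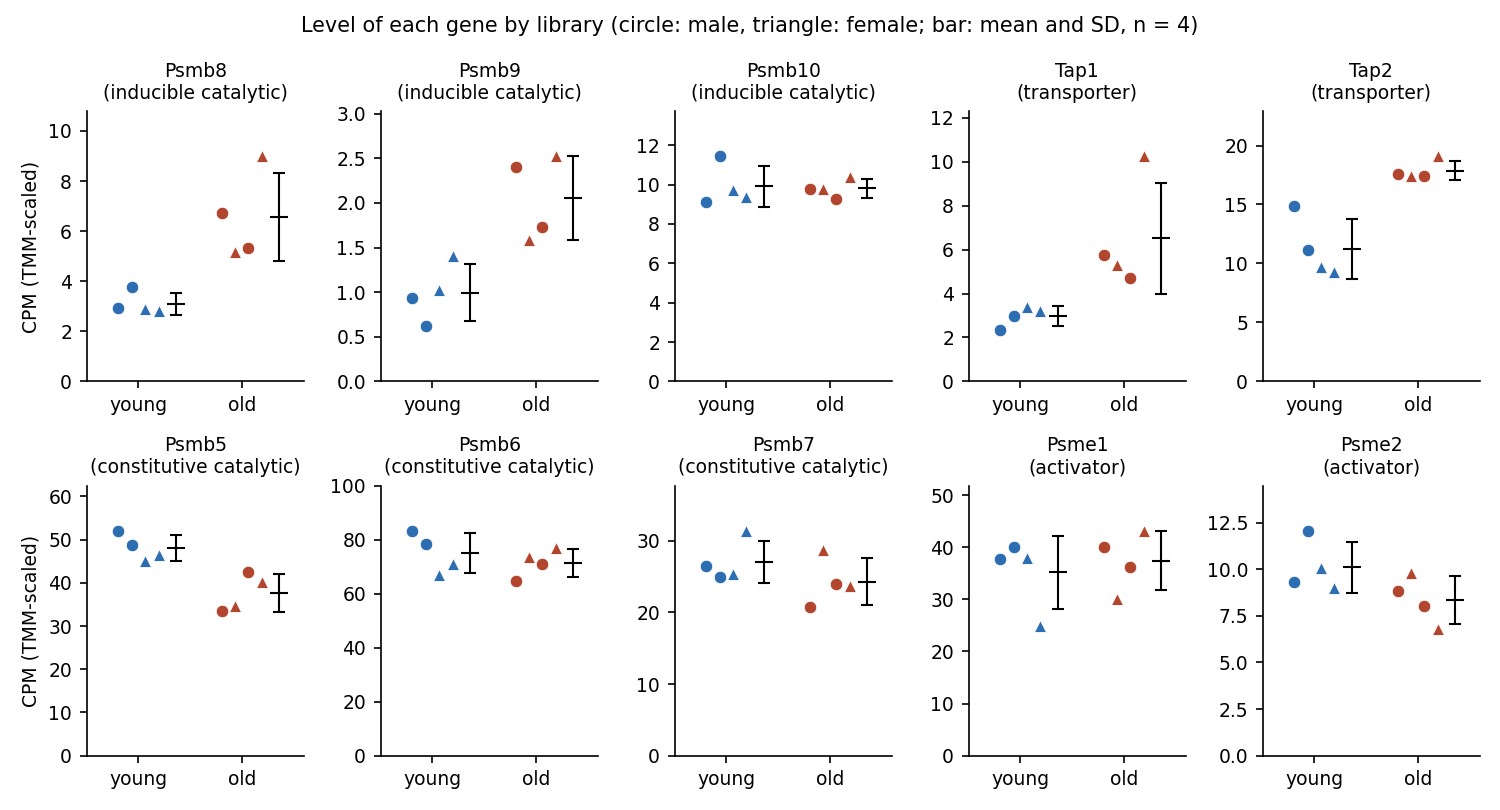
Level of each member in CPM (y axis, from 0) in the young and old libraries; circles are males, triangles females, and the bar is the mean and SD of 4 libraries. Old libraries lie above young ones for Psmb8, Psmb9, Tap1 and Tap2 and below for Psmb5, and the groups overlap for Psmb10, Psmb6, Psmb7, Psme1 and Psme2.

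The peptide transporter genes, linked to Psmb8 and Psmb9, also had separate groups. Tap1 stood at 5.77, 5.32, 4.71 and 10.2 CPM in old 1 to old 4 and at 2.32, 2.98, 3.41 and 3.22 CPM in young 1 to young 4. Old 4 was again the highest, and the groups did not overlap. The log2 fold change was 1.11 ± 0.27 (SE), with an adjusted p = 0.153 by edgeR. Tap2 stood at 17.6, 17.4, 17.4 and 19.1 CPM in old and 14.9, 11.1, 9.71 and 9.25 CPM in young mice. Here the spread lay in the young group, where young 1 was the highest. The coefficient of variation was 4.47% in old and 22.7% in young mice, where counting alone gives 9.3% and 11.7%. Its log2 fold change was 0.68 ± 0.15 (SE), with an adjusted p = 0.127 by edgeR, the lowest of the members.

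The constitutive catalytic subunits had negative log2 fold changes, of which that of Psmb5 went with separate groups. Psmb5, the beta5 subunit that Psmb8 replaces, had 33.5, 34.6, 42.6 and 40.2 CPM in old 1 to old 4 and 52.1, 48.9, 45.0 and 46.4 CPM in young 1 to young 4. Each old value lay below each young one. The log2 fold change was -0.35 ± 0.10 (SE), with an adjusted p = 0.229 by edgeR. Psmb6, the beta1 subunit, ranged from 64.6 to 76.9 CPM in old and from 67.1 to 83.4 CPM in young mice, with a log2 fold change of -0.07 ± 0.09 (SE). Psmb7, the beta2 subunit, ranged from 20.8 to 28.7 CPM in old and from 24.9 to 31.4 CPM in young mice, with a log2 fold change of -0.16 ± 0.12 (SE). The groups overlapped for both.

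The activator subunits, which interferon is also known to induce, had overlapping groups. Psme1 stood at 40.1, 30.0, 36.3 and 43.2 CPM in old 1 to old 4 and at 37.8, 40.1, 38.0 and 24.8 CPM in young 1 to young 4, with young 4 well below the others. Psme2 stood at 8.81, 9.77, 8.01 and 6.78 CPM in old and 9.30, 12.1, 10.1 and 8.97 CPM in young mice. Old 4, the highest library for Psmb8, Psmb9, Tap1, Tap2 and Psme1, was the lowest for Psme2. The log2 fold changes were 0.10 ± 0.15 (SE) for Psme1 and -0.26 ± 0.17 (SE) for Psme2.

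No member passed an adjusted p of 0.05 over all genes. Among the 14191 genes tested 0.12% passed, and 1563 had an unadjusted p under 0.05, among them 5 of the 10 members (Tap2, Psmb8, Tap1, Psmb5 and Psmb9). Old values lay above all young values for 4 of the 10 members, against 3.14% of genes tested, and below them for 1 member, against 3.45%. Psmb9 is in the first 2 of these counts although it passed the low-count filter only through the old libraries. The members were chosen with earlier results of these data known, so these shares describe them and support nothing further. Fitted with age in weeks, Psmb8 and Tap1 passed, at adjusted p = 0.042 and 0.0393 by edgeR and log2 fold changes of 1.13 and 1.18 over the mean age difference of 70.5 weeks. Without old 2, old 3 and young 4 the same 2 members passed, at 0.0488 and 0.0347, with log2 fold changes of 1.25 ± 0.30 and 1.34 ± 0.30 (SE). The old mice left in that fit were old 1 and old 4, of 93 and 102 weeks, so it also left out the younger old mice. They were the highest old libraries for Psmb8 and Tap1. In that fit Psmb9 had 1.47 ± 0.49 (SE), with an adjusted p = 0.213, and Psmb10 turned from just below to just above 0, at 0.0006 ± 0.23 (SE). Psmb8 and Tap1 passed in only these 2 of 17 alternative fits. With a block for the replicate number their adjusted p by edgeR reached 0.596 and 0.591.

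Some counts cannot be assigned to 1 gene with certainty, since the sources used here give neither the strand setting nor the treatment of multiply mapped reads. Psmb9 and Tap1 share 212 exonic bases on opposite strands. The antisense gene Gm20496 covers 14.7% of the exonic bases of Psmb8, the opposite-strand gene Gm15821 covers 14.1% of those of Tap2, and Nek6 covers 11.8% of those of Psmb7. Of the 50-base words in Psmb5 transcripts 54.1% occur in another gene, among them the pseudogene Psmb5-ps, and 28.3% of those in Psme2 occur in Gm7928 or Psme2b. Psmb10 shared 0 such words. The values of Psmb5 and Psme2 are therefore uncertain in level.

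Within a library, the balance of each inducible subunit to the one it replaces does not depend on library scaling, so the 3 ratios were compared between ages directly. The ratio of Psmb8 to Psmb5 was higher in old mice. Its log2 values in old 1 to old 4 were -2.30, -2.73, -2.98 and -2.15. Those in young 1 to young 4 were -4.11, -3.67, -3.92 and -4.01, so that the groups stood apart. The mean difference was 1.39 ± 0.21 (SE) on the log2 scale, or 2.62-fold (two-sided exact permutation p = 0.0286, and 0.0429 adjusted over the 3 ratios). This p is the smallest possible with 4 libraries a group. The 3 ratios were chosen with earlier results of these data known, so their p-values describe them and support nothing further.

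The ratio of Psmb9 to Psmb6 was higher in old mice too. Old 1 to old 4 had log2 values of -4.70, -5.48, -5.30 and -4.89, and young 1 to young 4 had -6.37, -6.80, -5.92 and -5.59. The lowest old library, old 2, stood just above the highest young one, young 4. The mean difference was 1.08 ± 0.32 (SE), or 2.12-fold, with the same exact permutation p = 0.0286 and 0.0429 adjusted. It rests on 4 to 16 counts of Psmb9 per library, and the counts entered the ratio without the filter that Psmb9 had passed through the old libraries. Without old 2, old 3 and young 4 the difference was 1.57. The ratio of Psmb10 to Psmb7 was not shown to differ. Its log2 values ran from -1.55 to -1.09 in old and from -1.73 to -1.12 in young mice, with a mean difference of 0.14 ± 0.17 (SE) and an exact permutation p = 0.429. Permuted within each sex the first 2 ratios gave an exact p = 0.0556 each, the smallest that 2 against 2 in each sex allows.

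**Figure D3:**
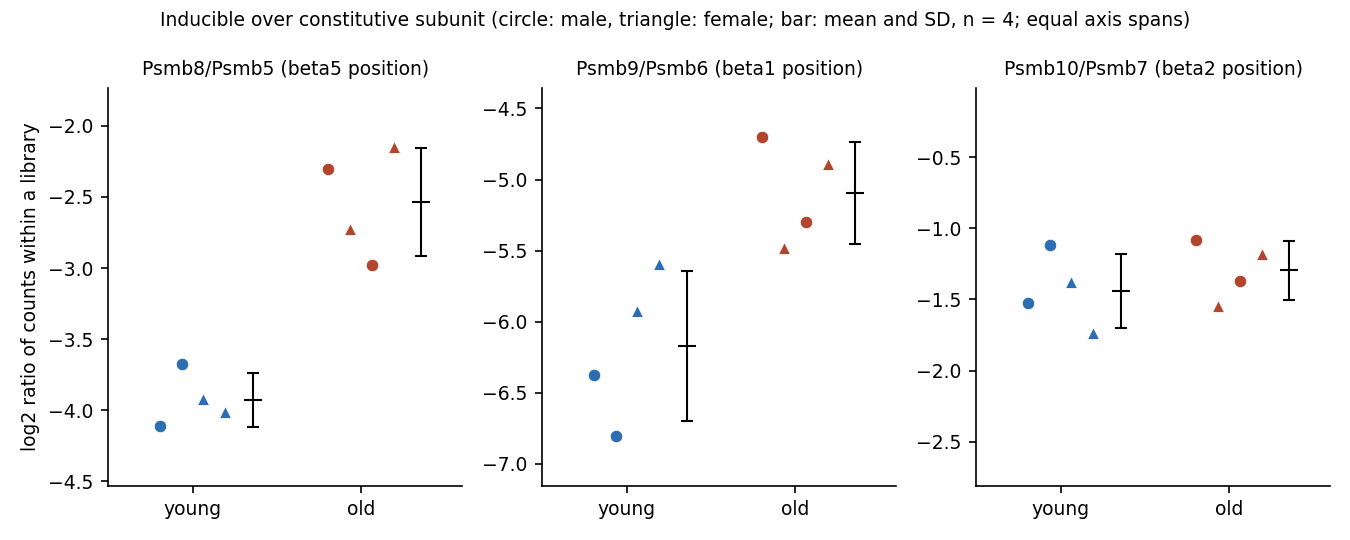
Log2 ratio of the counts of an inducible to its constitutive subunit in each library (y axes of equal span), by age; circles are males, triangles females, and the bar is the mean and SD of 4 libraries. Old and young libraries stand apart for Psmb8/Psmb5 and, narrowly, for Psmb9/Psmb6, and overlap for Psmb10/Psmb7.

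Other ratios between members were computed as descriptions, with no test. Psmb8 over Psmb10, both inducible, had a log2 value of -0.61 ± 0.31 (SD, n = 4) in old and -1.66 ± 0.07 (SD, n = 4) in young mice, and the groups did not overlap. Psmb8 over the activator Psme1 stood at -2.52 ± 0.20 in old and -3.46 ± 0.26 in young mice, again without overlap. Psmb8 over Tap1 stood at 0.04 ± 0.19 in old and 0.06 ± 0.31 in young mice. Psmb9 over Tap1, the divergent neighbours, stood at -1.58 ± 0.33 and -1.55 ± 0.44. The mean ratios among Psmb8, Psmb9 and Tap1 thus differed between ages by less than the spread between mice. Psmb10 over Psme1 stood at -1.91 ± 0.20 in old and -1.80 ± 0.29 in young mice, with overlap.

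Scaled per kb of exonic sequence, the constitutive subunits were far more abundant than the inducible beta5 and beta1 subunits at both ages. In young mice the order was Psmb5 (53.5 CPM per kb), Psmb6 (40.1), Psme1 (15.9), Psmb7 (7.91), Psmb10 (5.82), Psme2 (5.72), Tap2 (2.97), Psmb8 (0.917), Tap1 (0.545) and Psmb9 (0.272). Neighbours in this order had separate ranges over the 4 young libraries, except Psmb10 and Psme2. In old mice Psmb5 (42.0 CPM per kb) overlapped Psmb6 (38.2), and Psmb7 (7.11), Psmb10 (5.75), Psme2 (4.73) and Tap2 (4.73) each overlapped the next. Psmb8 (1.94) overlapped Tap1 (1.19), and Psmb9 (0.562) stayed last. With the longest coding transcript as the length, Psmb6 led in young and old mice, at 94.0 and 89.6 CPM per kb, and Psmb5 came next.

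Per 100 units of Psmb5 at equal length, Psmb8 amounted to 4.69 ± 1.20 (SD, n = 4) in old and 1.76 ± 0.236 (SD, n = 4) in young mice. With the longest coding transcript these values were 9.75 ± 2.50 and 3.65 ± 0.490. Psmb9 amounted to 1.54 ± 0.378 per 100 of Psmb6 in old and 0.745 ± 0.263 in young mice, and to 1.77 ± 0.436 and 0.859 ± 0.304 by transcript length. Psmb10 was of the same order as Psmb7, at 82.4 ± 11.6 per 100 in old and 74.9 ± 13.6 in young mice by exonic length, and 36.3 ± 5.09 and 33.0 ± 5.99 by transcript length. The choice of length moved the level of each ratio by the same factor at both ages.

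Old means lay above young means in both sexes for Psmb8, Psmb9, Tap1 and Tap2. Psmb8 had an old to young ratio of means of 1.80 in males and 2.48 in females, Tap1 of 1.98 and 2.35, and Tap2 of 1.35 and 1.92. Psmb9 had 2.66 in males and 1.69 in females, on counts of 16 or fewer per library. An age by sex interaction, fitted over 4 groups of 2 animals, passed for 0 genes (0.0%) by edgeR, with 326 at an unadjusted p under 0.05, and for 1 gene by DESeq2. Among the members the smallest unadjusted p was that of Psmb6, 0.0366, with an adjusted p of 0.9999 by edgeR. Its old to young ratio of means was 0.836 in males and 1.09 in females. No member passed for sex, where the largest log2 difference, female minus male, was 0.47 ± 0.26 (SE) for Tap1.

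The rest of the pathway was described by lists of genes, none of whose members passed over all genes. Of 18 regulatory cap genes, which recognise and unfold substrates, 16 had log2 fold changes below 0, and the list's median was -0.12. Over all genes tested 51.3% were below 0 and the median was -0.01. Small negative values were not particular to proteasome genes. Of 10 markers each, 10 granule neuron, 9 Purkinje cell and 8 astroglia markers were below 0, with medians of -0.19, -0.11 and -0.12. Of 12 microglia markers 0 were below 0. Whether cell composition bears on these lists was not tested. Among the cap genes Psmd7, Psmc2, Psmd2 and Psmc3 had values of -0.25 ± 0.07, -0.24 ± 0.08, -0.16 ± 0.07 and -0.16 ± 0.08 (SE). Of 11 other core subunits 7 were negative, with a median of -0.12, from Psma4 at -0.24 ± 0.11 to Psma3 at 0.23 ± 0.12, with Psmb1 and Psmb4 at -0.13 ± 0.09 and -0.12 ± 0.08. The 5 assembly factors were all negative, with a median of -0.14, such as Pomp at -0.14 ± 0.08, a chaperone of core assembly, and Psmg1, Psmg2 and Psmg4 at -0.20 ± 0.19, -0.17 ± 0.27 and -0.14 ± 0.22. The other activators Psme3 and Psme4 and the inhibitor Psmf1 had 0.04 ± 0.09, 0.07 ± 0.09 and 0.14 ± 0.09.

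Of 9 class I loading genes 5 were positive, with a median of 0.22. The heavy chain H2-K1 and the light chain B2m stood highest, at 1.19 ± 0.20 and 0.91 ± 0.17 (SE). H2-D1, another heavy chain, stood at 0.28 ± 0.11 and Tapbp, the tapasin gene that bridges class I and Tap, at 0.22 ± 0.12. Of 13 transcription regulators 10 were positive, with a median of 0.29, and 6 had old values above all young ones, against 3.14% of genes tested. This list was chosen with earlier results of these data known. Irf7, an interferon-response factor, had 1.84 ± 0.34, and Nlrc5, the transactivator of class I, Psmb9 and Tap1 genes, had 1.52 ± 0.38. Nlrc5 averaged 1.35 ± 0.224 CPM (SD, n = 4) in young mice and 3.96 ± 1.95 CPM (SD, n = 4) in old mice. Irf9, which carries the interferon signal to the nucleus, had 0.58 ± 0.15. The adjusted p by edgeR was 0.0757 for Irf7, 0.18 for Nlrc5 and 0.191 for Irf9.

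**Figure D4:**
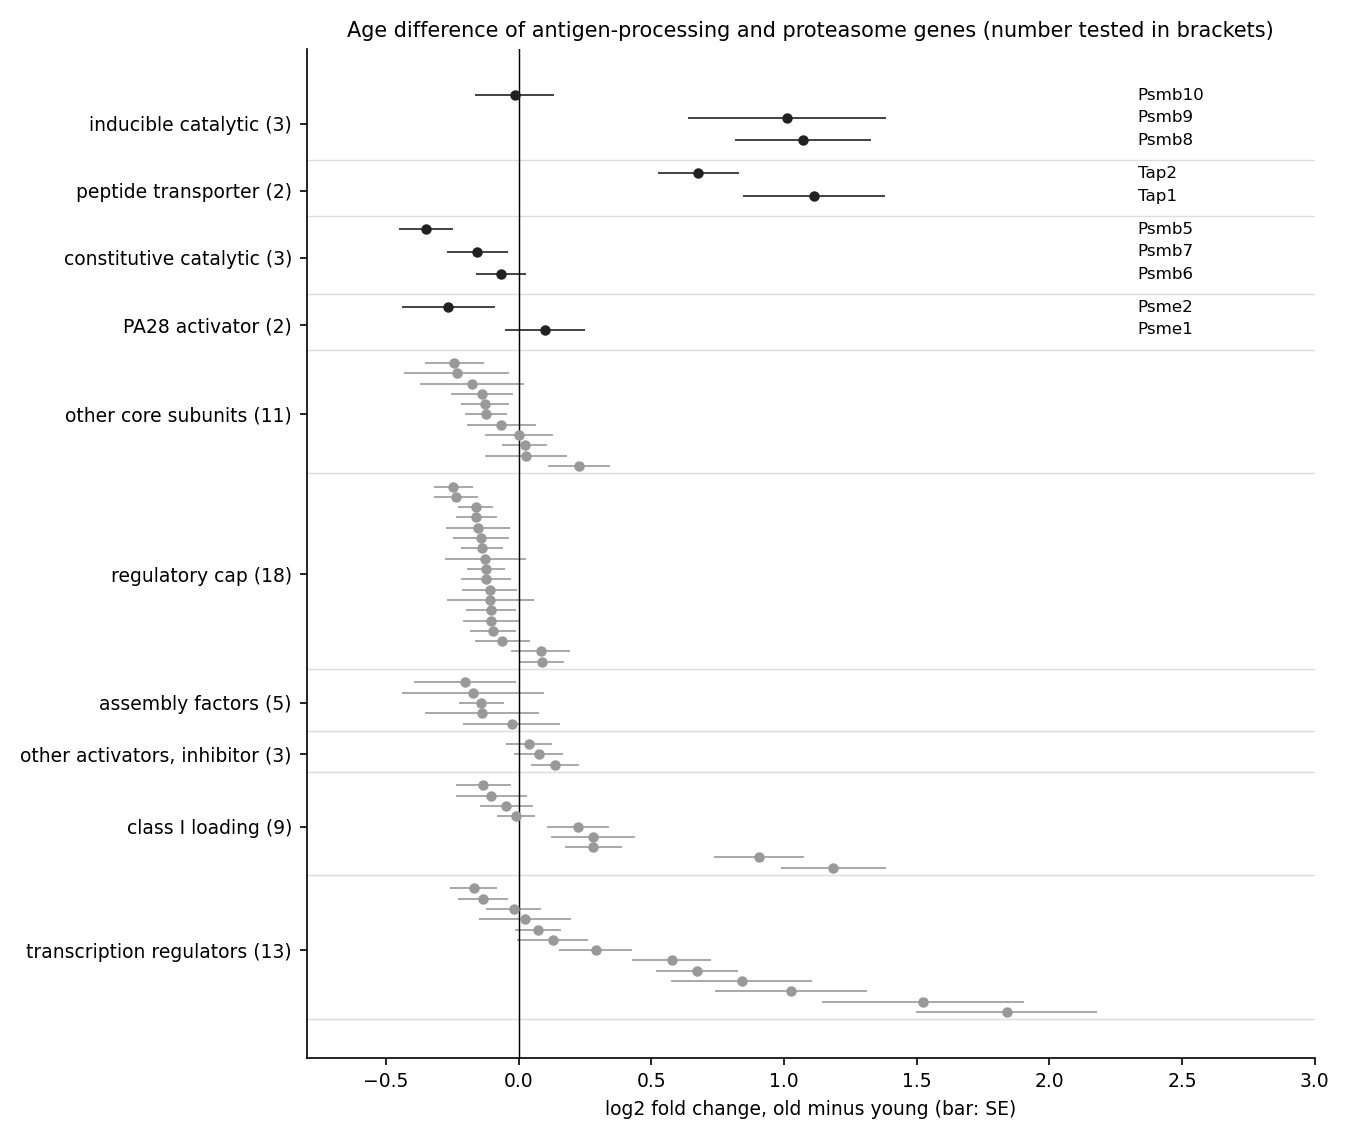
Log2 fold change of old minus young with its SE (x axis) for the members (black, named) and for the genes of 6 pathway lists (grey), grouped by role on the y axis with the number of genes tested. Psmb8, Psmb9, Tap1 and Tap2 lie between 0.68 and 1.11, Psmb10 at -0.01, and most core, cap and assembly genes between -0.25 and 0.

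The summed level of microglia markers was also higher in each old library than in any young one. Singly this held for 7 of the 12 markers, a list chosen with earlier results known, against 3.14% of genes tested. Together they summed to 220, 249, 258 and 440 CPM in the old libraries and 136 to 178 CPM in the young ones. All 12 had log2 fold changes above 0, with a median of 0.77, although none passed the adjusted p. They ran from 0.35 for Csf1r and 0.39 for P2ry12 to 1.47 for C1qa. Old 4, the highest library for Psmb8 and Tap1, was also the highest for these markers. Per 100 CPM of microglia markers, Psmb8 stood at 2.30 ± 0.333 (SD, n = 4) in old and 1.96 ± 0.223 (SD, n = 4) in young mice, and Tap1 at 2.22 ± 0.131 and 1.89 ± 0.345, with overlapping ranges. Tap2 stood at 6.53 ± 1.54 and 7.18 ± 2.11, and Psmb10 at 3.58 ± 0.827 and 6.26 ± 0.599, where the groups stood apart. On this scale Psmb5, Psmb6, Psmb7, Psme1 and Psme2 were also lower in each old library than in any young one. The separation was thus not particular to Psmb10. Values on this scale also depend on which markers are summed. C1qa, C1qb and C1qc were among the largest terms in old mice, at 47.5, 35.0 and 43.6 CPM. In young mice they averaged 16.9, 14.2 and 18.6 CPM. A sum without them was not computed. In bulk tissue, more cells of a type and more RNA per cell cannot be told apart, and the part of microglia in these differences was not tested. Lymphocyte markers were close to the floor. The 7 T and NK cell markers found in the tables summed to 0.627 to 2.52 CPM per library and the 4 B cell markers to 0.421 to 1.76 CPM, and none had enough counts to be tested.

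**Figure D5:**
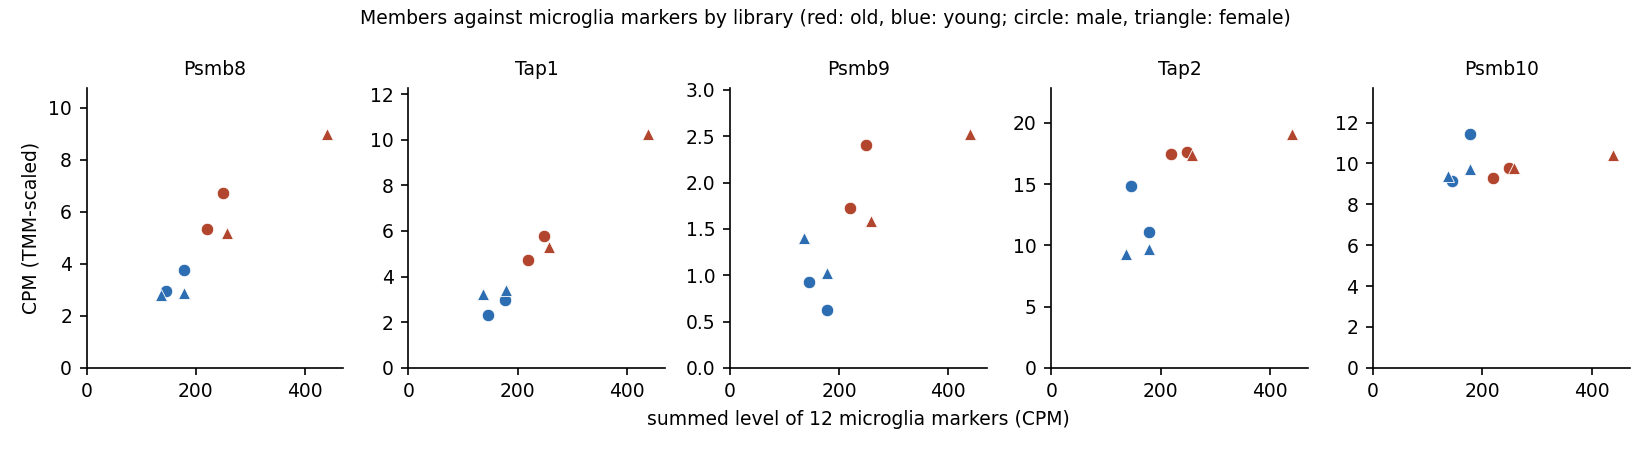
CPM of Psmb8, Tap1, Psmb9, Tap2 and Psmb10 (y axes, from 0) against the summed CPM of 12 microglia markers (x axis) in each of 8 libraries; red is old, blue is young, circles are males and triangles females. Old 4 lies far to the right at 440 CPM and highest for the first 4 genes, while Psmb10 stays between 9.14 and 11.4 CPM across the whole range.

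The genes whose log2 CPM followed that of Psmb8 most closely over the 8 libraries were sought among 10842 genes of mean log2 CPM of at least 3. They were H2-K1, Serping1, Ifit2, Irgm2 and Parp14, with Pearson correlations of 0.982, 0.975, 0.970, 0.969 and 0.968. After the mean of each age was removed the correlations were 0.906, 0.880, 0.901, 0.834 and 0.880. Among the nearest to Psmb5 were Cdk5r2, Pfdn2, Psmd8 and Nkain1, at 0.988, 0.988, 0.987 and 0.971. Psmd8, a subunit of the regulatory cap, kept 0.974 after the age means were removed. Among the members, Psmb8 and Tap1 had a correlation of 0.934, and 0.752 with the age means removed, while Psmb8 and Psmb9 had 0.802 and 0.203, and Psmb8 and Tap2 had 0.836 and 0.234. With the unlinked Psmb10 and Psme1, Psmb8 had 0.257 and 0.465, and 0.710 and 0.654 with the age means removed. All these values rest on the same 8 libraries, with 4 of each age, and are descriptions.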

How the data were processed

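For each of 8 libraries the authors deposited counts per gene, read here as raw because the values are whole numbers with totals that differ between libraries. Per the labels' protocols, RNA was extracted with Trizol and columns with DNase digestion, and libraries were made with a kit that depletes ribosomal RNA. The submitters' processing notes name GRCm38 and mm10 as builds and, among the tools, STAR 2.7.5b, featureCounts and Trimmomatic 0.39. Which annotation was counted is not given in the sources used here. Dates had replaced 24 gene names in 7 of the tables, so these were joined by row to the one with intact names. No pair of libraries of a group differed by as little as sampling noise.

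The filterByExpr rule of edgeR, with 10 counts as its minimum and the 4 combinations of age and sex as groups, left 14191 genes, among them all 10 members. Age and sex were fitted in edgeR 4.0.16 under R 4.3.3 after TMM scaling, with the newer dispersion method and quasi-likelihood tests, adjusted by Benjamini-Hochberg over all genes at 0.05. SE was derived from the log2 fold change and its F statistic. Ratios added 0.5 counts to both genes and were compared over 70 regroupings. Lengths and spans are from GENCODE M21, and promoter windows from RefSeq (GRCm38.p6). The members, lists and tests were chosen with earlier results of these data known. Genes named were the 10 members, up to 4 of each pathway list with the smallest p, and the 5 most like Psmb8 or Psmb5, of which some are not reported here. Alternatives were DESeq2 1.42.0, limma-voom 3.58.1 with quality weights, DESeq2 size factors, 2 other filters, older dispersions, no term for sex, age in weeks, a block for the replicate number, libraries left out, other added counts and another gene length.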

Additional observations from a re-analysis of the deposited data

Results flagged for a closer look

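In 3 of 26 groups of 4 libraries (10 members and 3 ratios at both ages) 1 library stood apart from the others. Its gap, relative to the range, was past Dixon's 95% critical value for 4 values. Chance alone marks about 1 in 20 such groups. Psmb8 stood at 3.76 CPM in young 2, above the other young libraries. Psme1 stood at 24.8 CPM in young 4, below the other young libraries. The 7 liver markers summed to 21.2 CPM in that library, and whether this bears on Psme1 was not tested. Tap2 stood at 19.1 CPM in old 4, above the other old libraries, although old 2 and old 4 both had 121 counts. For Tap2 in old and Psmb8 in young mice the spread was below counting error. Their coefficients of variation were 4.47% and 14.3%, where counting alone gives 9.3% and 22.4%.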

How the results depend on the processing

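The number of genes past the threshold for age, 17, was 125 by DESeq2, 1 by limma-voom, 26 with older dispersions, 103 with age in weeks and 155 without old 2, old 3 and young 4. With 1 library left out it ranged from 0 (without young 3 or young 4) over 2 (old 1 or young 1), 8 (young 2), 11 (old 4) and 49 (old 3) to 54 (old 2). With the replicate block it was 1. The cause of these shifts was not tested. Same-numbered libraries share only a number: the correlations of their deviations were 0.156, -0.222, -0.048 and -0.252, and with the block no member passed. Exact sign flips of these pairs gave p = 0.125 for the 2 higher ratios, the smallest possible. For the interaction DESeq2 called 1 gene. The Psmb9 to Psmb6 difference was 1.57 without old 2, old 3 and young 4, and with 1 library left out it ranged from 0.87 to 1.28, that of Psmb8 to Psmb5 from 1.26 to 1.54. The log2 fold changes of Psmb10 and Psme1, near 0, changed sign. Psmb10 had 0.0088 with the filter of 50 counts in 4 libraries, 0.0193 without old 3, 0.0875 without young 2 and 0.0006 without old 2, old 3 and young 4, and Psme1 had -0.0282 without old 4 and -0.0401 without young 4. With 1 library left out Psmb10 ranged from -0.052 to 0.0875 and Psme1 from -0.0401 to 0.1914. The other 8 members kept their direction wherever tested; that filter left out Psmb8, Psmb9 and Tap1. Psmb9's few counts limit its precision.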
